A study of Sus scrofa with 8 samples.

Results

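The serpins are a family of proteins that share one fold, most of which inhibit serine proteases. In this section they are taken as every gene of the mRNA table whose pig symbol begins with SERPIN. The table of gene names pairs 29 such symbols with an Ensembl identifier, 21 of these identifiers are among the 21607 rows of the mRNA table, and 20 of the genes are described here. SERPINA1, SERPINA4, SERPINB6, SERPINB9, SERPINB12, SERPINB13, SERPINF2 and SERPINH1 have no row under the identifiers of that table and were not analysed here. The livers came from healthy sows of the Yanan breed (spelled Yana in the study's abstract), which is indigenous to China. The young livers (YL) were from 2 sows aged 180 days and the old livers (OL) from 2 sows aged 8 years. The study reports that the young sows had never given birth and that the old ones were culled after years of breeding. Age and reproductive history therefore cannot be told apart here. None of the animals is labelled with a treatment or an altered gene, and the study's methods describe them as unrelated to each other in recent generations. Each liver gave 1 rRNA-depleted RNA-seq library, so each age rests on 2 animals.

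An inhibitory serpin carries an exposed loop that its target protease cuts. The cut traps the protease in a covalent complex, and both molecules are lost. The liver secretes many serpins of clades A, C, D, F and G into plasma, where they restrain clotting, fibrinolysis, complement and leukocyte proteases, while several members of clade A carry hormones and inhibit no protease. Serpins of clade B mostly stay inside the cell. A clade is a branch of the family tree and gives each gene its letter.

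Values are in CPM, the reads of a gene scaled to a common library total with no gene length in them, so the level of a gene was compared between livers, and shares of a sum and ratios of genes below are read only for how they differ between livers. The mRNA rows held 37555694 and 37125093 reads in the YL and 22482241 and 24866406 in the OL. The library totals that the values imply were 91846031 and 86556806 in the YL and 61539360 and 71832288 in the OL. Depth thus differed by age, and the mRNA rows were a smaller part of the total in each OL than in either YL. Since CPM is scaled to that total, the summed CPM of the mRNAs was lower in both OL. Of the whole-liver markers, all 10 hepatocyte genes were measured, with a summed level of 86404 and 94072 CPM in the YL and 61084 and 64206 in the OL. Most of that sum came from APOC3 and ALB. Gene by gene 2 of the 10 were higher and 8 lower in OL, and the ages did not overlap in 4, all lower in OL. Of all tested mRNAs with a mean of at least 1 CPM, 60.0% were lower in OL. The ages did not overlap in 50.7% of those mRNAs, with 32.9% lower. With other scalings between libraries (median-of-ratios or TMM factors), 4 of the hepatocyte genes were higher and 6 lower. Old replicate 1 stood apart from the other 3 livers, because 18 measured interferon-stimulated genes summed to 2023 CPM in it and to between 61.5 and 89.5 in the others. For the serpins and the groups of genes they work with, values that turn on this liver are also given without it. In bulk tissue, fewer cells of a type and less RNA per cell cannot be told apart.

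Among these 20 serpins, 18 had reads in at least 1 liver, and SERPINB11 and SERPINI2 were listed at 0 in all 4. Above 0 in at least 2 livers, and thus tested, were 17 members. The remaining untested one, SERPINA12 (vaspin), had a single read in old replicate 2. A mean of at least 1 CPM over the 4 livers was reached by 9 members, namely SERPINA5, SERPINA6, SERPINA7 and SERPINA11 of clade A, SERPINB1 of clade B, and SERPINC1, SERPIND1, SERPINF1 and SERPING1. Apart from SERPINB1, these 9 encode secreted proteins.

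No serpin passed the thresholds of an adjusted p-value under 0.05 and an absolute log2 fold change above 1 in limma. This was 0 of 17 tested members, against 0% of the 16898 mRNAs tested. The adjusted p-values of the members lay between 0.361 and 0.990. Before adjustment 0 members had a p-value under 0.05 in limma, where 15.7% of all mRNAs tested did. Without old replicate 2 there were 2, SERPINB1 and SERPINA6. On the reads recovered from the values, edgeR's exact test, which calls 2.36% of the same mRNAs, called 0 serpins and gave none an unadjusted p-value under 0.05. The quasi-likelihood test of edgeR and DESeq2 also called 0 members, with 0 under 0.05 before adjustment in each. Over the 16898 mRNAs tested, the quasi-likelihood test called 0 and DESeq2 called 880. Under 0.05 before adjustment, the quasi-likelihood test had 1954 higher and 520 lower mRNAs. DESeq2 had 1696 higher and 757 lower.

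**Figure D1:**
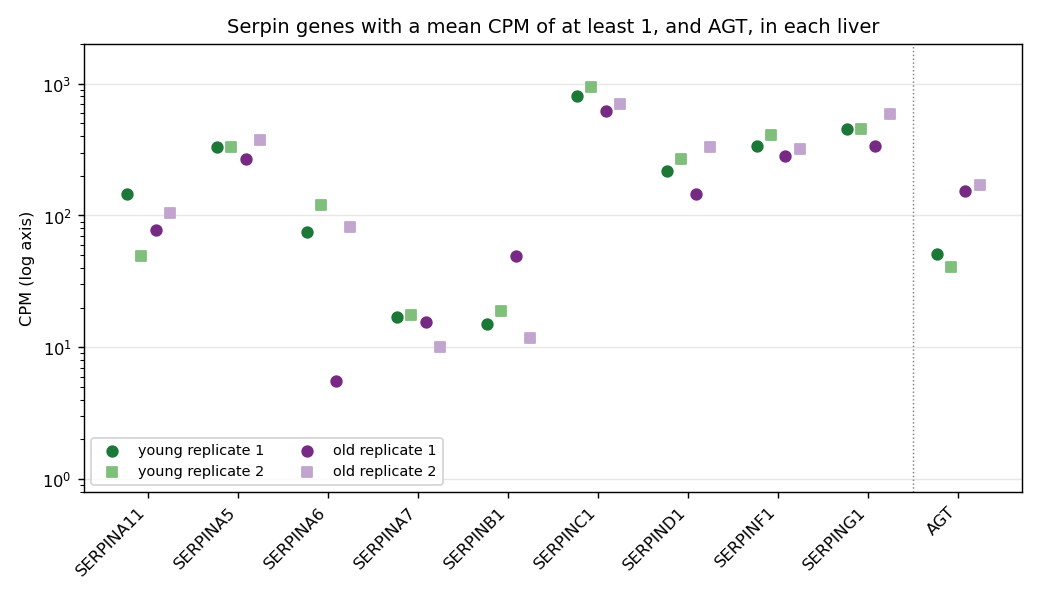
CPM in each liver (log axis) of the 9 serpins with a mean of at least 1 CPM and, right of the dotted line, of AGT. Each point is 1 library, green for young and purple for old, and the 2 ages are apart in SERPINA7, SERPINC1, SERPINF1 and AGT, while old replicate 1 is far below the others in SERPINA6 and far above them in SERPINB1.

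Of the 9 members with a mean of at least 1 CPM, 3 had both OL outside the range of the YL. These were SERPINA7, SERPINC1 and SERPINF1, each lower in OL. Such a separation was common in these livers. It was found in 49.3% of all mRNAs tested and in 50.7% of the 9790 tested mRNAs with a mean of at least 1 CPM, with 17.8% higher and 32.9% lower. Separated serpins were therefore no more frequent than separated mRNAs of this abundance. An exact permutation test of 2 against 2 livers cannot give a p-value under 0.333, so none is given for these separations. Among the 9 members 7 had a lower and 2 a higher log2 mean in OL, and their median log2 fold change of -0.14 lay beside -0.15 for mRNAs of that abundance, 60.0% of which were lower. With median-of-ratios or TMM factors the 9 members had 4 lower and 5 higher, beside 51.2% and 49.98% lower of those mRNAs, and without old replicate 1 they had 5 lower and 4 higher.

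Antithrombin, the product of SERPINC1 (ENSSSCG00000015493), is the main plasma inhibitor of thrombin and factor Xa and marks this family in hepatocytes. SERPINC1 had 812 and 944 CPM in the YL and 619 and 705 in the OL. Both OL lay below both YL, and the ratio of the means was 0.754 (878 ± 93.8 in YL and 662 ± 60.6 in OL, mean ± SD, n = 2 each). On log2(CPM + 1) the log2 fold change, OL minus YL here and throughout, was -0.41 (standard error, SE, 0.16; adjusted p = 0.361, limma). It was -0.31 without old replicate 1 and -0.50 without old replicate 2. With other scalings between libraries it was nearer to 0 (-0.23 with median-of-ratios factors and -0.21 with TMM factors), and the groups then overlapped.

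The genes of the target proteases of antithrombin had patterns of their own. Thrombin is made from prothrombin (F2), which had 406 and 456 CPM in the YL and 628 and 562 in the OL. Factor X (F10) had 89.5 and 96.6 in the YL and 338 and 157 in the OL. The level of both genes was higher in each OL than in either YL, with log2 fold changes of 0.46 (adjusted p = 0.294, limma) and 1.30 (adjusted p = 0.330, limma) that did not pass. Without old replicate 1 they were 0.38 and 0.75. The ratio of SERPINC1 to F2 does not depend on the scaling of the libraries, and only its change between livers can be read, since length is not included. It was 2.0 and 2.07 in the YL and 0.985 and 1.25 in the OL. The ratio of SERPINC1 to F10 was 9.07 and 9.78 in the YL and 1.83 and 4.48 in the OL, so the OL lay below the YL in both ratios. Factor IX (F9), a further target, was lower in OL, at 232 and 242 CPM against 127 and 164, and the ratio of SERPINC1 to F9 was 3.50 and 3.90 in the YL against 4.88 and 4.29 in the OL. The ratio of SERPINC1 to ALB, the gene of albumin, was also higher in OL, at 0.0275 and 0.0268 against 0.0374 and 0.0294. These pairs were chosen after the values had been seen and were given no test.

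SERPIND1 (ENSSSCG00000010093) encodes heparin cofactor II, a further thrombin inhibitor. It had 217 and 268 CPM in the YL, 145 in old replicate 1 and 332 in old replicate 2. The OL enclosed the YL, so no direction can be given for age. The log2 fold change was -0.14 (SE 0.49, adjusted p = 0.932, limma), and it was 0.46 without old replicate 1.

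SERPINA5 (ENSSSCG00000002481), the protein C inhibitor, had 333 and 334 CPM in the YL, 268 in old replicate 1 and 375 in old replicate 2. SERPING1 (ENSSSCG00000013181) encodes the C1 inhibitor, which restrains the first complement proteases, plasma kallikrein and factor XIIa. It had 450 CPM in each YL (450.3 and 449.6), 338 in old replicate 1 and 587 in old replicate 2. For both genes the YL were nearly identical and the OL lay on either side of them, with old replicate 1 as the lowest and old replicate 2 as the highest liver. The log2 fold changes were -0.07 (adjusted p = 0.921, limma) and -0.01 (adjusted p = 0.990, limma). Without old replicate 1 they were 0.17 and 0.38.

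SERPINF1 (ENSSSCG00000017818) encodes pigment epithelium-derived factor, a secreted serpin that inhibits no protease and is known to block vessel growth. It had 337 and 410 CPM in the YL and 284 and 320 in the OL. Both OL lay below both YL, with a ratio of the means of 0.809 and a log2 fold change of -0.30 (SE 0.17, adjusted p = 0.495, limma). It was -0.21 without old replicate 1, and with TMM factors it was -0.10 and the groups overlapped.

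The hormone carriers of clade A differed from one liver to the next. SERPINA6 (ENSSSCG00000002475) encodes corticosteroid-binding globulin, which carries cortisol in blood. It had 75.1 and 121 CPM in the YL, 82.0 in old replicate 2 and only 5.59 in old replicate 1, where 344 reads were found. The OL thus differed 14.7-fold from each other, and old replicate 2 lay between the YL. The log2 fold change of -2.04 (SE 1.46, adjusted p = 0.588, limma) rested on old replicate 1. It was -0.22 without that liver and -3.87 without old replicate 2. SERPINA7 (ENSSSCG00000012547), the gene of thyroxine-binding globulin, had 17.0 and 17.5 CPM in the YL, 15.6 in old replicate 1 and 10.1 in old replicate 2. Here old replicate 2 was the lowest liver, and both OL lay below the YL (log2 fold change -0.43, SE 0.25, adjusted p = 0.516, limma). It was -0.72 without old replicate 1 and -0.14 without old replicate 2, and the groups overlapped with both other scalings.

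SERPINA11 (ENSSSCG00000002479) had 147 CPM in young replicate 1 and 49.1 in young replicate 2, a 2.99-fold difference within one age. The OL, at 77.4 and 104, lay between them. SERPINA5, SERPINA6 and SERPINA11 stand near each other in one cluster of the Sscrofa11.1 assembly, and each of the 3 was above 5 CPM in every liver. Their order over the livers was not shared. Young replicate 1 was the highest for SERPINA11, young replicate 2 for SERPINA6 and old replicate 2 for SERPINA5. How reads shared between similar genes were assigned is not given in the sources used here, so these levels are uncertain to that extent.

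SERPINB1 (ENSSSCG00000001011), an intracellular inhibitor of neutrophil elastase and related proteases, had 15.0 and 18.7 CPM in the YL, 49.2 in old replicate 1 and 11.8 in old replicate 2. Old replicate 1 was 2.92-fold above the mean of the YL, and old replicate 2 was the lowest of the 4 livers. The log2 fold change of 0.51 (SE 0.79, adjusted p = 0.809, limma) became -0.47 without old replicate 1 and 1.50 without old replicate 2. Leukocytes are rich in this serpin. The 4 measured neutrophil markers summed to 0.0980 and 0.393 CPM in the YL, to 6.03 in old replicate 1 and to 2.06 in old replicate 2, and ELANE, MPO and S100A8 were at 0 in both YL. The 5 measured macrophage markers summed to 232 and 254 in the YL and to 340 and 375 in the OL. The 5 measured markers of T and NK cells summed to 58.7 and 37.6 in the YL and to 222 and 40.8 in the OL, mostly from CD247, and without it to 5.49 and 7.22 in the YL and to 16.4 and 9.29 in the OL. Their part in the level of SERPINB1 was not tested.

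The other serpins had low values. The 8 tested members with a mean under 1 CPM did not exceed 1.33 CPM in any liver, and their log2 fold changes lay between -0.20 and 0.23. SERPINB8 reached 1.33 CPM in old replicate 1 and had from 44 to 92 reads per liver. SERPINB7 had 71 reads in young replicate 2 and from 10 to 22 in the other livers. SERPINE2, protease nexin-1, had 73 reads in young replicate 1, 1 in young replicate 2 and 21 and 22 in the OL, so its difference within the YL was larger than that between the ages. SERPINE3 had 12 and 0 reads in the YL and 8 and 14 in the OL, and SERPINI1, neuroserpin, had 1 and 18 in the YL and 11 and 4 in the OL. SERPINB10 was above both YL in each OL, but with 5 and 4 reads in the YL against 10 and 4 in the OL. There were 5 members at 3 reads or fewer in every liver, which is the limit of detection used here. They were SERPINB2, SERPINB5, SERPINA12, SERPINB11 and SERPINI2. No difference between the ages was detectable at this depth in them. SERPINB2, SERPINB5, SERPINB7, SERPINB10 and SERPINB11 lie in one cluster of Sscrofa11.1, and none of these 5 exceeded 0.820 CPM in any liver.

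**Figure D2:**
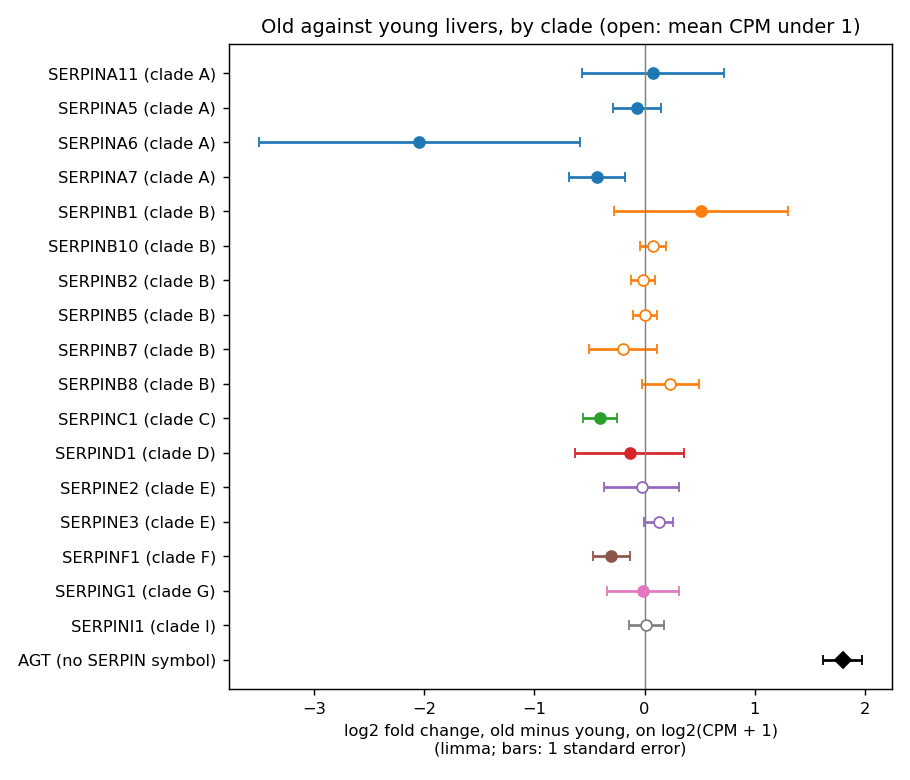
Log2 fold change between old and young livers on log2(CPM + 1) with its standard error from limma, for the 17 tested serpins in order of their clade letter and for AGT. Filled circles are members with a mean of at least 1 CPM and open circles those below it, and the widest errors are those of SERPINA6, SERPINB1 and SERPINA11, whose replicates were far apart.

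By clade, the 4 tested members of clade A had a median log2 fold change of -0.25, with 1 higher and 3 lower in OL. That median was -0.079 with median-of-ratios factors, -0.056 with TMM factors and -0.022 without old replicate 1. The 6 tested members of clade B had a median of 0.04, with 4 higher and 2 lower, and the 2 described of clade E a median of 0.05, with 1 higher and 1 lower. Clades C, D, F, G and I had 1 tested member each, at -0.41, -0.14, -0.30, -0.01 and 0.01. The median of all mRNAs tested was -0.02, and no clade had a member that passed the thresholds. The summed CPM of clade B was from 0.514% to 0.791% of the sum over the described serpins in 3 livers and 2.82% in old replicate 1, where SERPINB1 alone made up 2.73%. Grouped by function, the 5 described serpins of coagulation and fibrinolysis had 0 higher and 5 lower (median -0.07), the 4 carrier and non-inhibitory serpins 1 higher and 3 lower (median -0.37), and both measured inhibitors of elastase and chymotrypsin, SERPINB1 and SERPINB8, were higher on average (median 0.37). Every one of these members missed the thresholds, and the directions of the first and last group were not stable. With either other scaling 4 of the 5 serpins of coagulation and fibrinolysis were higher and 1 was lower, and without old replicate 1 there were 3 higher and 2 lower (median 0.17). Without old replicate 1 the log2 fold changes of SERPINB1 and SERPINB8 were -0.47 and 0.049, with a median of -0.21. The median of the carrier and non-inhibitory serpins was also -0.21 without that liver.

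The 20 serpins together held 0.588% and 0.610% of the mRNA reads in the YL, 0.494% in old replicate 1 and 0.730% in old replicate 2 (95% Wilson intervals 0.585 to 0.590, 0.607 to 0.612, 0.491 to 0.497 and 0.727 to 0.734, which cover counting error only). The OL again enclosed the YL. In CPM the members summed to 2404 and 2614 in the YL and to 1805 and 2529 in the OL, a ratio of the means of 0.863, and without SERPINC1 the ratio was 0.923. The log2 ratio of the sums was -0.21 over all livers, 0.01 without old replicate 1 and -0.48 without old replicate 2. It was -0.037 with median-of-ratios factors and -0.013 with TMM factors. SERPINC1 made up 33.8% and 36.1% of this sum in the YL, 34.3% in old replicate 1 and 27.9% in old replicate 2. Old replicate 1 was the lowest liver for 6 of the 9 members with a mean of at least 1 CPM and the highest for 1. Over the 9790 mRNAs of that abundance it was the lowest for 31.8% and the highest for 23.3%. The median fold between the 2 replicates of an age was 1.22 in YL and 1.55 in OL for the 9 serpins, and 1.36 and 1.45 for the mRNAs of that abundance.

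**Figure D3:**
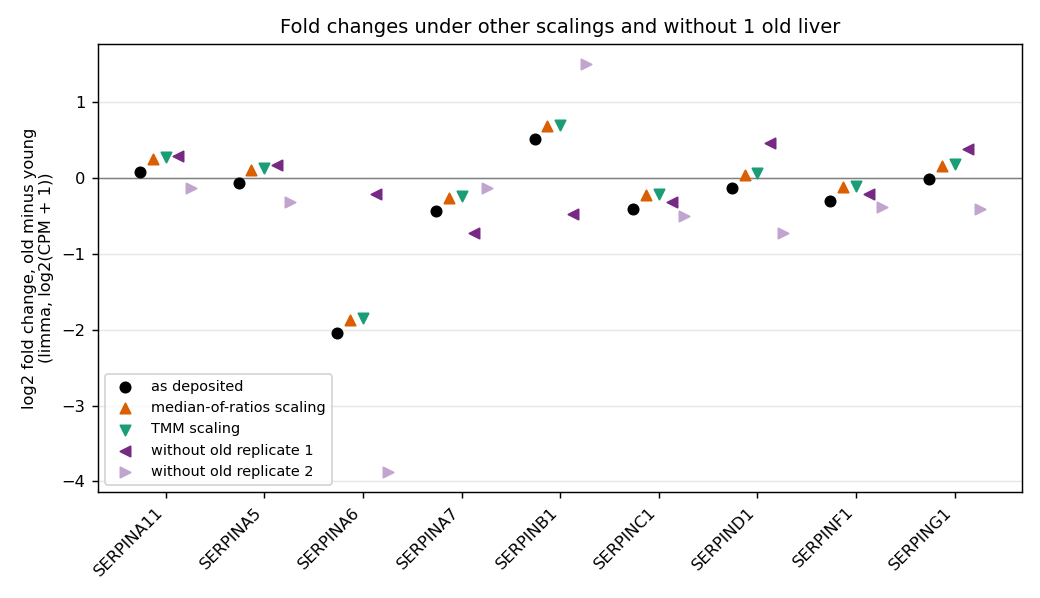
Log2 fold changes (limma, log2(CPM + 1)) of the 9 serpins with a mean of at least 1 CPM as deposited, with 2 other scalings between libraries and without either old liver. SERPINA6, SERPINA7, SERPINC1 and SERPINF1 stay below 0 in all 5 settings drawn, whereas SERPINA5, SERPIND1 and SERPING1 lie on both sides and SERPINB1 and SERPINA11 change sign without 1 old liver.

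Angiotensinogen (AGT, ENSSSCG00000010184), the precursor of angiotensin, belongs to the serpins by its fold and is also known as SERPINA8, but its symbol places it outside the family as chosen here. It had 51.3 and 40.6 CPM in the YL and 153 and 170 in the OL. Both OL lay far above both YL, and the ratio of the means was 3.51 (45.9 ± 7.62 in YL and 161 ± 11.8 in OL, mean ± SD, n = 2 each). The log2 fold change was 1.80 (standard error 0.18, unadjusted p = 0.00143, adjusted p = 0.213, limma). With 1 liver left out or another scaling, filter or test it lay between 1.63 and 2.02, with an adjusted p-value of 0.0616 in the exact test of edgeR. It passed the thresholds in DESeq2 alone (adjusted p = 5.88e-07). Of the serpin genes named here, AGT had the smallest p-value.

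**Figure D4:**
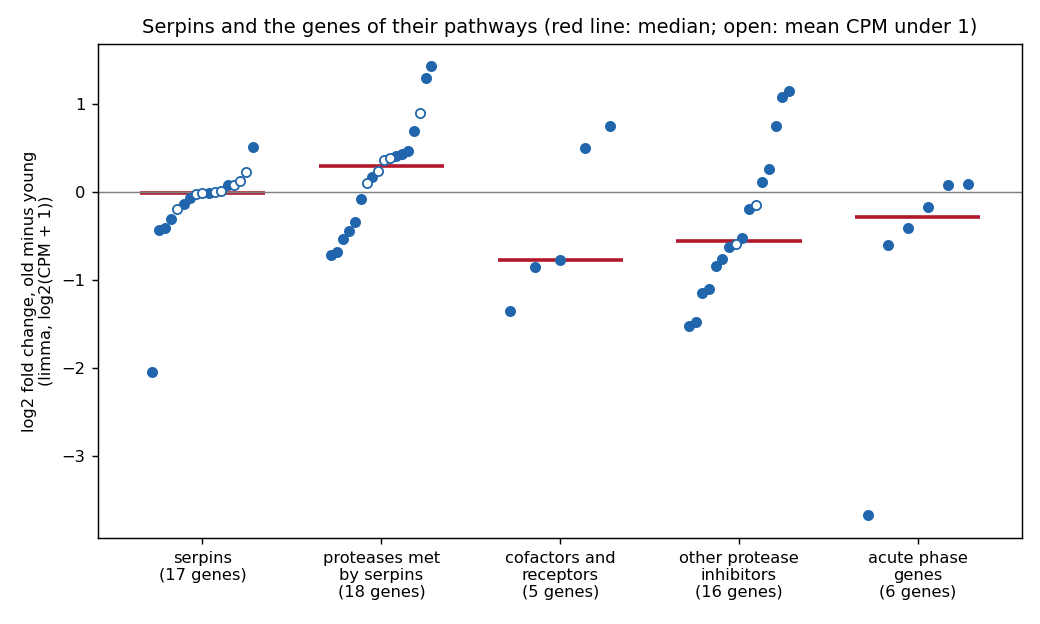
Log2 fold changes (limma, log2(CPM + 1)) of the 17 tested serpins and of the tested genes of 4 lists of genes they work with, in rising order within each list. Red lines are medians, which lie near 0 for the serpins, above 0 for the proteases and below 0 for the other 3 lists, and open circles are genes with a mean under 1 CPM.

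The proteases that serpins meet were described from a list of 24, of which 18 were measured. In limma 12 were higher and 6 lower in OL, with a median log2 fold change of 0.30, and 0 passed the thresholds. Among the higher, ELANE and PRTN3 were at 0 in both YL and were tested only because both OL were above 0. The filter on low values thus fixed their direction. Before adjustment, 3 of the higher and 2 of the lower genes had a p-value under 0.05, beside 15.7% of all mRNAs tested. Of these higher genes, ST14 had 1 and 0 reads in the YL, under the limit of detection of 3 reads, and 20 and 19 in the OL. Without old replicate 1 ELANE and PRTN3 were no longer tested, and the median of the 16 genes left was 0.36. It covers fewer genes than the median of 0.30, so the 2 are not directly comparable. HGFAC, the activator of hepatocyte growth factor, had 27.9 and 41.5 CPM in the YL and 76.1 and 114 in the OL (log2 fold change 1.43, adjusted p = 0.253, limma). MASP1, a complement protease that the C1 inhibitor restrains, had 13.9 and 18.3 in the YL and 9.56 and 9.69 in the OL (-0.68, adjusted p = 0.272, limma). For F9, described above with antithrombin, the log2 fold change was -0.71 (adjusted p = 0.264, limma).

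Of 10 cofactors and receptors of serpins or of the proteases they meet, 5 were measured, with 2 higher and 3 lower in OL. Their median log2 fold change was -0.78, and it was -0.59 without old replicate 1. PROS1, the gene of protein S, had 78.5 and 67.7 CPM in the YL and 37.0 and 48.1 in the OL (adjusted p = 0.264, limma). Its log2 fold change was the median of -0.78 itself, and the 5 values ran from -1.35 to 0.75. SDC2, a heparan sulfate proteoglycan of the cell surface, had 76.9 and 57.6 in the YL and 30.7 and 43.3 in the OL (adjusted p = 0.307, limma). HSPG2, perlecan, was the opposite, with 0.610 and 0.774 in the YL and 1.22 and 2.63 in the OL (adjusted p = 0.381, limma). None of the 5 passed.

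Protease inhibitors of other families were more often lower than higher, with 11 of the 16 measured of a list of 21 lower and a median of -0.55, but 0 passed the thresholds. Of all mRNAs with a mean of at least 1 CPM, 60.0% were lower. Without old replicate 1 the median of this list was -0.12, with 10 of 16 lower. A2M, the broad inhibitor alpha-2-macroglobulin, had 674 and 602 CPM in the YL and 381 and 332 in the OL (log2 fold change -0.84, SE 0.15, adjusted p = 0.223, limma). ITIH3, a heavy chain of the inter-alpha-trypsin inhibitors, had 371 and 359 in the YL and 258 and 216 in the OL (-0.63, adjusted p = 0.254, limma). CSTB, an intracellular inhibitor of cathepsins, had 2.28 and 4.63 in the YL and 8.14 and 8.91 in the OL (1.15, adjusted p = 0.283, limma). Of 12 acute phase genes 6 were measured, with 2 higher and 4 lower and a median of -0.28, which was -0.73 without old replicate 1 and 0.07 without old replicate 2. CRP, C-reactive protein, had 360 and 217 CPM in the YL and 36.7 and 11.9 in the OL (-3.67, adjusted p = 0.228, limma). FGG (-0.60) and LBP (-0.40) were nearer to 0, with both ages overlapping in FGG.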

How the data were processed

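The authors sequenced 1 rRNA-depleted, strand-preserving library per liver. The submitters' processing notes name TopHat2 2.0.14, StringTie 1.2.3 and Salmon 0.6.0, and the study's methods name Sscrofa10.2. The values the authors deposited as TPM are CPM, since 99.89% to 99.96% of each library's non-zero values were whole multiples of its smallest step within 0.0006 CPM, which gave the reads. Gene length and the handling of reads shared between similar genes could not be recovered. Symbols were matched by Ensembl identifier (11654 of 21607 rows), and neighbours were taken from Sscrofa11.1, so no coordinates are given.

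mRNAs above 0 in at least 2 libraries (16898) were tested on log2(CPM + 1) with limma 3.58.1 in R 4.3.3, 2 OL against 2 YL, with Benjamini-Hochberg adjustment over all of them, and called at an adjusted p under 0.05 with an absolute log2 fold change over 1. The recovered reads were tested with edgeR 4.0.16 and DESeq2 1.42.0 as alternatives. The steps were tested on simulated data. Members with a mean of at least 1 CPM are described in full, with the 3 genes of smallest unadjusted p from each partner list and AGT. F2, F10, ST14, the neutrophil markers given by gene and the low members given by reads were named after their values were seen. Marker lists are given as sums. The members and lists were chosen with earlier results of these data known. Same-numbered livers came from different animals. Of the 21 rows the rule takes in, 1 is not reported here, and it stayed in the fits and in the counts over all mRNAs. The small RNA, lncRNA and circRNA tables were not used here.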

Additional observations from a re-analysis of the deposited data

How the results depend on the processing

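No alternative brought a serpin past the thresholds, the replicate block included (0 called). Same-numbered libraries deviated with a correlation of 0.0902. This single value cannot show whether they were handled together, which the labels do not say. Over all mRNAs the calls were 0 in limma, 2 with a mean of at least 1 CPM, 399 in the exact test of edgeR, 880 in DESeq2 and 0 in the quasi-likelihood test of edgeR. Of the 17 tested members, 7 kept their direction under every alternative tried, among them 4 of the 9 with a mean of at least 1 CPM.

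The alternatives for groups of genes and for partner genes were chosen after seeing the data. The 3 members whose ages did not overlap became 0 with median-of-ratios factors and 0 with TMM factors (both chosen after seeing the data), and between 4 and 8 with 1 liver left out, when 74.2% to 77.1% of the mRNAs of that abundance were also apart. These scalings moved the median log2 fold change of all mRNAs from -0.02 to 0.03 and 0.04. With median-of-ratios factors, TMM factors, the exact test, the quasi-likelihood test and DESeq2, SERPINA5 turned to 0.11, 0.13, 0.15, 0.15 and 0.13, SERPIND1 to 0.041, 0.065, 0.17, 0.17 and 0.15, and SERPING1 to 0.16, 0.19, 0.24, 0.24 and 0.22. SERPINE2 turned to 0.42 with a pseudocount of 0.1 and to 0.024 and 0.029 with the scalings. The medians of clades A, C and F moved to -0.079, -0.23 and -0.13 with median-of-ratios factors and to -0.056, -0.21 and -0.10 with TMM factors. The log2 ratio of the summed family moved from -0.21 to -0.037 and -0.013. With a pseudocount of 0.1 clades B, E and I moved to 0.24, 0.60 and 0.17, and clade B to 0.51 when only members with a mean of at least 1 CPM remained. The cause was not tested.

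With 1 liver left out in turn, the log2 ratio of the summed family ran from -0.48 to 0.011, and the clade medians ran from -0.56 to -0.02 in A, -0.01 to 0.12 in B, -0.52 to -0.30 in C, -0.73 to 0.46 in D, -0.20 to 0.30 in E, -0.44 to -0.16 in F, -0.41 to 0.38 in G and -0.11 to 0.14 in I. SERPINA11 ran from -0.70 to 0.86, SERPINA5 from -0.31 to 0.17, SERPINB1 from -0.47 to 1.50, SERPINB5 from -0.011 to 0.021, SERPINB7 from -0.55 to 0.16, SERPINB8 from -0.0072 to 0.47, SERPIND1 from -0.73 to 0.46, SERPINE2 from -0.44 to 0.39, SERPING1 from -0.41 to 0.38 and SERPINI1 from -0.11 to 0.14. In these fits the lone liver of an age is assumed to vary like the other age. At an unadjusted p under 0.05 in limma there were SERPINB1 and SERPINA6 without old replicate 2 and 0 serpins in each other alternative tried. A count of 3 reads, the limit of detection, corresponded to between 0.0327 and 0.0487 CPM.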

Other observations

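The ratio of SERPINA5 to PROC, the gene of protein C, was 1.46 and 0.905 in the YL and 0.880 and 0.765 in the OL. Both OL lay below both YL, but the YL differed more from each other than the nearest YL and OL did. The ratio of SERPIND1 to F2 was 0.535 and 0.588 in the YL and 0.231 and 0.591 in the OL, which overlapped. These pairs were chosen after the values had been seen and were given no test.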
